A study of Mus musculus with 12 samples.

Results

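The genes described here build the primary cilium and its gate, the transition zone. They are 33 named genes of intraflagellar transport, the BBSome, the transition zone and the basal body, picked by symbol, and all 33 were found among the 31078 genes of the count table. RNA was sequenced from E12.5 mouse lungs (strain background C57BL/6), taken from the progeny of parents that carried an Intu knockout allele. Each lung side gave its own library, so that wild-type and Intu-knockout embryos are each represented by 3 left and 3 right libraries, 12 libraries in 4 groups. Nothing in the labels tells what the allele removes from Intu. They also do not say whether each numbered library stands for another embryo, and the p-values therefore reflect sample-to-sample spread that could be technical.

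A primary cilium is a single, non-motile rod of microtubules that grows from a basal body, a modified centriole, at the cell surface. Intraflagellar transport (IFT) trains carry its parts: the IFT-B complex moves outward with a kinesin motor, and the IFT-A complex takes part in the return and in the entry of membrane proteins. The BBSome moves membrane receptors out of the cilium, and the transition zone decides which proteins pass its base. In the embryonic lung the cilium relays Hedgehog signals from the epithelium to the mesenchyme, and Intu encodes a subunit of the CPLANE complex, which acts at the basal body when the cilium is built.

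The part of each library used here held between 10290103 and 10753386 counts, from chromosomes 1 to 7, 10, X and a stretch of 8, and 9519 genes had enough counts to be tested, all 33 cilium genes among them. Levels are in counts-per-million (CPM) of that part. Intu itself, on chromosome 3 from 40531286 to 40704774 (GRCm38), lay between 28.2 and 34.0 CPM in the 6 wild-type libraries and between 26.2 and 31.4 CPM in the 6 knockout libraries. The groups overlapped, and with left and right counts summed the log2 difference was -0.16 (SE 0.072, adjusted p = 0.392 by edgeR). Reads from a part of Intu that the allele does not remove would still be counted, so the level of Intu is no check of the labels. Gli1, a transcription factor gene that Hedgehog signalling switches on, was at 344.6 to 394.4 CPM in wild type and 150.6 to 185.5 CPM in the knockout (log2 fold change -1.09, SE 0.061, adjusted p = 0.000121). All 6 libraries labelled knockout lay below all 6 wild-type libraries for Gli1.

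Many cilium genes carry an X-box near their start, the motif bound by RFX transcription factors. RefSeq promoter windows (GRCm38.p6, from 250 bases before to 50 bases after the start) matched 28 of the 33 genes and gave 35 windows. The motif was searched on both strands as GTNNCCNGNNAC, GTNNCCNNGNNAC, GTNNCCNNNGNNAC and GTNNCCNNNNGNNAC, which differ in the gap between the arms. It was found in 12 of the 35 windows (34.3%), against 13.4% of all 32851 windows of the same length. With GTNNCCNNNGNNAC alone the shares were 25.7% and 4.62%, and for GTTGCC, which overlaps the left arm of these motifs, 25.7% and 12.5%. The median GC content was 60.0% in the cilium windows and 52.7% in all windows, and its part in these shares was not tested. Matches that lie wholly before the start are shown for Bbs7, Tctn2 and Cep83, whose 3 knockout sums of left and right counts did not overlap the 3 wild-type sums. Such sums were higher for 21.2% of the 33 genes (beside 9.24% of all tested genes) and lower for 6.06% (beside 10.4%). Matches are also shown for Ift22, which was higher on the left in all 3 same-numbered pairs of both genotypes. In the knockout 3.03% of the 33 genes were so (beside 15.4%), and in wild type 12.1% (beside 14.1%). Capitals mark the match, and each sequence runs 5′ to 3′ on the gene's strand.
Bbs7 (chr3:36613472-36613535, minus strand): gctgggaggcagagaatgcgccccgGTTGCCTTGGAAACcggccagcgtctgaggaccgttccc
Tctn2 (chr5:124598662-124598725, plus strand): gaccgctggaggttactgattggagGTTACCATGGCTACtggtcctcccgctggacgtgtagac
Cep83 (chr10:94688751-94688789, plus strand): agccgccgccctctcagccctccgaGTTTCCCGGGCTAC
Ift22 (chr5:136908062-136908149, plus strand): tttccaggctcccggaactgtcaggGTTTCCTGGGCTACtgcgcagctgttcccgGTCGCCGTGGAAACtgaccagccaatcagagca
The match in Bbs7 spans positions -121 to -108 relative to the start and holds GTTGCC, whereas the match in Cep83 ends at position -1. The start here is the RefSeq start. In the counted gene models Cep83 begins earlier, at 94688654, so its match lies within the gene as counted. Bbs7 as counted, on the minus strand, begins at 36613477, also before its RefSeq start, and its match lies wholly before that point. Ift22 has 2 matches before its start. Across the 12 genes with a match, the median log2 difference between knockout and wild type was 0.026, and across the 16 genes without a match in their windows it was 0.071. A match is a description of these letters and shows no binding.

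All 33 genes were expressed. Per kilobase of exon (RPKM), they lay between percentiles 29.8 (Cep290) and 87.9 (Pcm1) of all tested genes. The median of the 33 was 8.73, against 8.69 over all tested genes, and 17 of the 33 lay above that. Pcm1, the scaffold of centriolar satellites, had the highest level at 51.0 RPKM. It was followed by Ift52 (31.1 RPKM) and Ift74 (26.4 RPKM), both subunits of IFT-B. The lowest were Cep290 (2.75 RPKM), which links microtubules to the membrane in the transition zone, Rpgrip1l (3.22 RPKM), a transition zone scaffold, and Tmem67 (3.82 RPKM), a transition zone membrane protein. Highest and lowest were thus 18.5-fold apart. In that order only 2 of the 32 neighbouring pairs of genes had 12 libraries that did not overlap, so most neighbours could not be ranked beyond their spread. The spread within a group, as the coefficient of variation, ran from 4.18% for Rab23 to 15.2% for Cep290, with a median of 6.90%. Tested genes in the same range of CPM had a median of 6.73%. The library knockout right 2 stood apart. The deviation of each gene from its mean over the 12 libraries had a median over the 33 genes of 0.094 log2 units there, against -0.034 to 0.015 in the other 11 libraries, and 9 of the 33 genes had their highest value in that library.

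**Figure D1:**
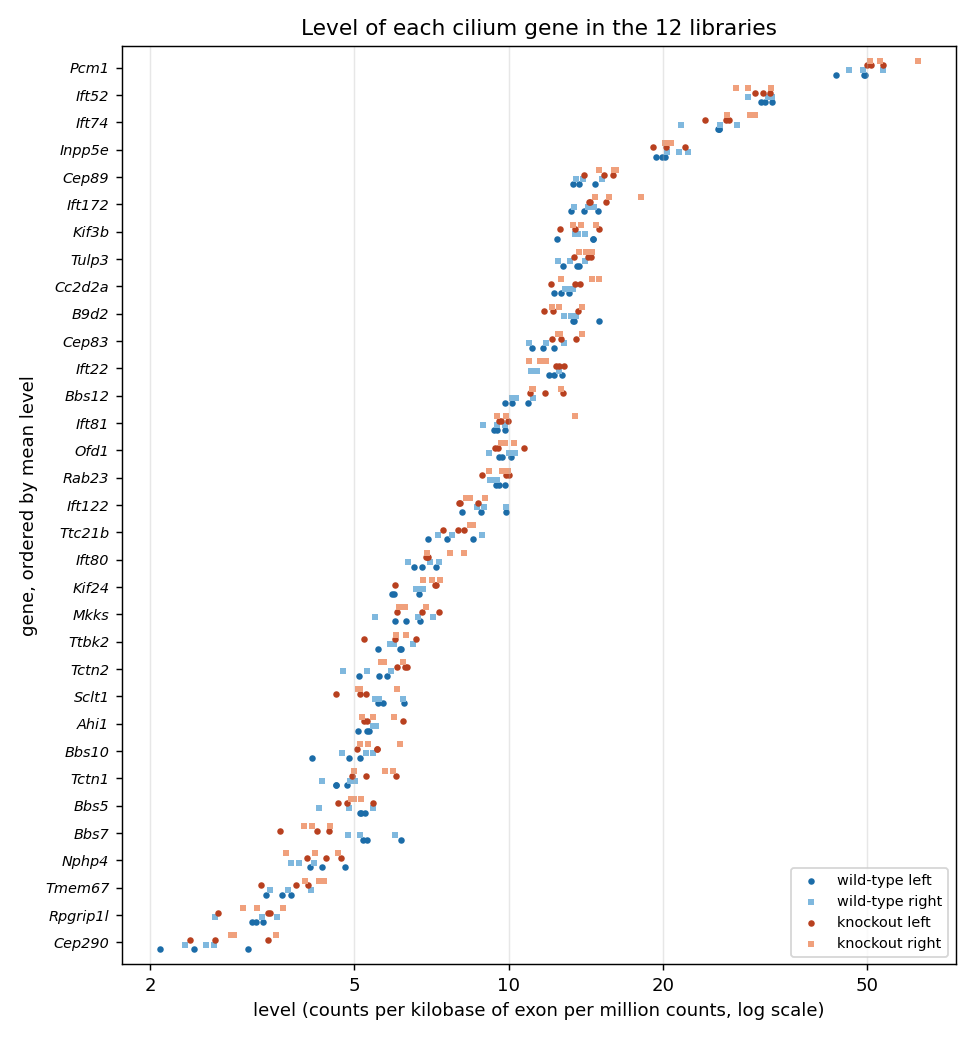
Level of each of the 33 cilium genes in the 12 libraries, in RPKM on a log axis; each point is 1 library, circles are left and squares right lungs, and genes are ordered by mean level. Pcm1 is highest at a mean of 51.0 and Cep290 lowest at 2.75, and neighbouring genes overlap in 30 of the 32 steps, while Bbs7 is the gene whose 6 wild-type points all lie above its 6 knockout points.

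With left and right counts of the same number summed (3 knockout sums against 3 wild-type sums), none of the 33 genes passed the threshold in edgeR, where 1.46% of all tested genes did (139 of 9519). At an unadjusted p under 0.05 there were 4 genes (12.1%), beside 13.6% of all tested genes. DESeq2, limma-voom with pairs and an edgeR fit of the 12 libraries without pairs each called 1 gene, Bbs7, beside 3.19%, 3.61% and 5.70% of all tested genes. The log2 differences ran from -0.39 to 0.23 with a median of 0.063, and 26 were above and 7 below 0. Over all tested genes the median was 0.0052 and 51.8% lay above 0. For 32 of the 33 genes the 95% interval lay within 0.5 log2 units of 0 on both sides, and for all 33 within 1 unit. The exception was Bbs7, whose interval reached -0.62. In these bulk samples, fewer cells of a type and less RNA per cell cannot be told apart.

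Bbs7, a BBSome subunit, lay lower in every knockout library than in any wild-type library. Wild-type lungs had 33.2, 28.0 and 28.5 CPM on the left and 32.4, 27.6 and 26.2 CPM on the right. Knockout lungs had 19.3, 22.8 and 24.1 CPM on the left and 21.5, 24.2 and 22.3 CPM on the right. It was the only one of the 33 genes with no overlap between 6 and 6 libraries, a pattern that 2.65% of all tested genes showed in the lower and 1.38% in the higher direction. The summed difference was -0.39 (SE 0.10, 95% interval -0.62 to -0.16, a level 0.763 times that of wild type). It missed the threshold in edgeR (adjusted p = 0.123). It passed with DESeq2 (adjusted p = 0.0344), with limma-voom and pairs (0.0229) and with the 12 libraries taken as independent in edgeR (0.0108). Bbs5, the other BBSome subunit of the set, had a difference of -0.0040 (95% interval -0.23 to 0.22).

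The 3 BBS chaperonin genes, whose products help to assemble the BBSome, had differences above 0, and none was called. Bbs12 had the smallest p of the 3. Wild-type lungs had 24.7, 26.6 and 23.9 CPM on the left and 25.2, 27.2 and 24.7 CPM on the right, and knockout lungs 28.7, 31.2 and 26.8 CPM on the left and 27.1, 30.8 and 27.2 CPM on the right. Summed left and right, Bbs12 did not overlap between genotypes (difference 0.17, SE 0.083, adjusted p = 0.415), but single libraries did. With a replicate left out the difference ranged from 0.11, without knockout replicate 2, to 0.22.

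Among the 9 transition zone genes, 8 differences were above 0 and 1 below, and none was called. Tctn1 and Tctn2 encode tectonic proteins of the complex that forms the ciliary gate. Tctn1 had 38.1, 38.2 and 40.2 CPM (left) and 35.8, 41.5 and 40.8 CPM (right) in wild type, and 43.7, 50.03 and 41.0 CPM (left) and 41.4, 47.6 and 49.5 CPM (right) in the knockout. Its 2 lowest knockout libraries lay within the wild-type range, and the summed difference was 0.22 (SE 0.072, 95% interval 0.057 to 0.39, adjusted p = 0.221). Of the exonic bases of Tctn1, 19.0% are shared with Hvcn1 on the opposite strand, and whether counting used strand is not given in the sources used here. Tctn2 had 42.5, 46.6 and 48.1 CPM (left) and 44.0, 39.6 and 49.1 CPM (right) in wild type, and 50.5, 52.6 and 52.2 CPM (left) and 51.8, 46.9 and 47.6 CPM (right) in the knockout. The left libraries of the 2 genotypes did not overlap and the right ones did (summed difference 0.16, SE 0.064, adjusted p = 0.311). Cep290 had a difference of 0.23, with an interval of -0.026 to 0.48. With a replicate left out, the difference in Cep290 ranged from 0.14 (adjusted p = 0.731, without wild-type replicate 2) to 0.33. Without wild-type replicate 2, Tctn1 had 0.23. B9d2, a subunit of the same gate, was the one transition zone gene below 0 (-0.095, 95% interval -0.27 to 0.082).

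**Figure D2:**
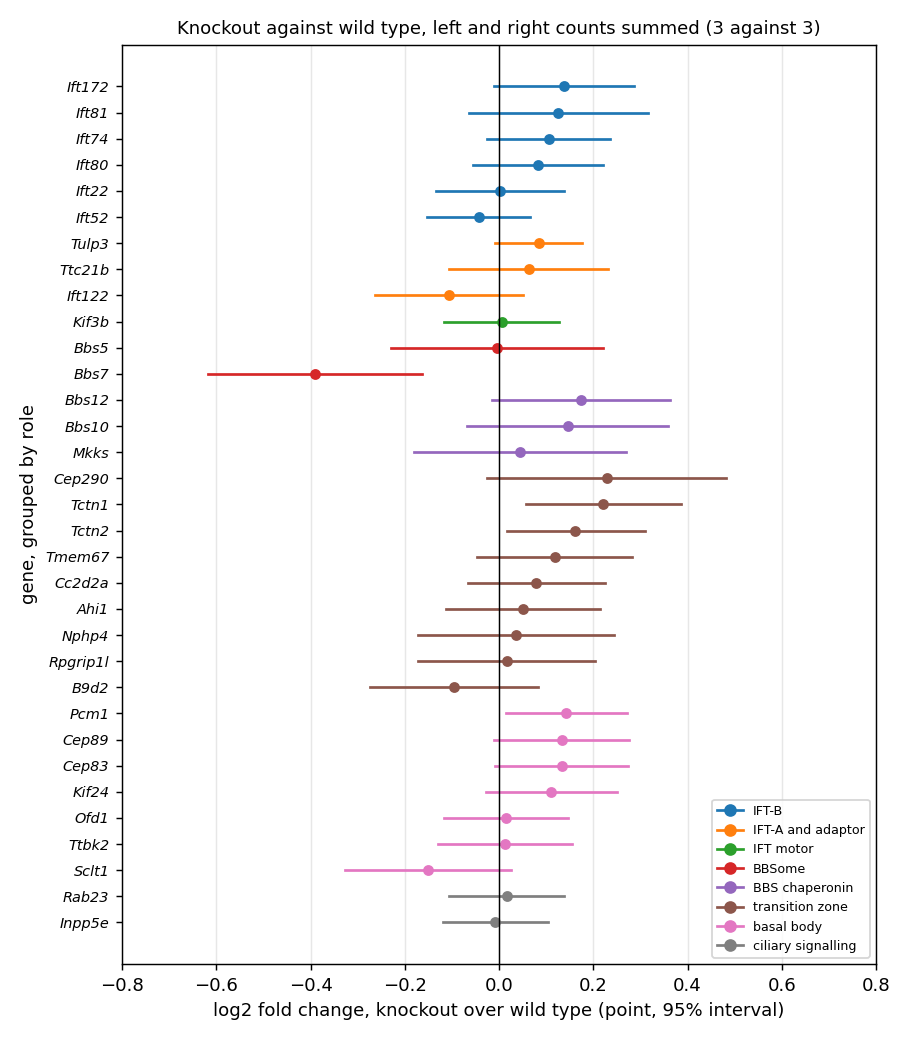
Log2 fold change of each gene, knockout over wild type, from left and right counts summed (3 sums against 3); points are edgeR estimates and bars their 95% intervals, coloured by role. All intervals stay within 1 log2 unit of 0, and those of Bbs7 (below 0) and of Tctn1, Tctn2 and Pcm1 (above 0) leave out 0 before adjustment for the genes tested.

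The 7 genes of the basal body, its distal appendages and the centriolar satellites had 6 differences above 0 and 1 below. Pcm1 had the smallest p of them. It had 370.3, 323.9 and 368.2 CPM (left) and 400.3, 365.6 and 343.5 CPM (right) in wild type, and 400.9, 373.6 and 379.4 CPM (left) and 378.6, 468.2 and 395.5 CPM (right) in the knockout. The sums did not overlap (difference 0.14, SE 0.056, adjusted p = 0.311), though single libraries did. Cep83 and Cep89 sit at the distal appendages that dock the basal body to the membrane. Each had a difference of 0.13 (adjusted p = 0.398 and 0.408). That of Cep83 was 0.083 without knockout replicate 2 and 0.089 without wild-type replicate 3, and at most 0.17 with a replicate left out. Sclt1, of the same appendages, was the one below 0 (-0.15, SE 0.078, adjusted p = 0.453). It had -0.096 without wild-type replicate 1 and -0.099 without knockout replicate 1, and its lowest value with a replicate left out was -0.21. Ofd1, a centriole and satellite protein gene on chromosome X, had 0.015 (95% interval -0.12 to 0.15). Xist, which silences an X chromosome in female cells, lay between 1270 and 2270 CPM in wild-type and between 107 and 985 CPM in knockout libraries. These ranges do not overlap. The part of this shift in the knockout and wild-type values of Ofd1 and of the other 32 genes was not tested. It cannot be told apart from that of the genotype in these libraries.

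The 6 IFT-B genes had 5 differences above 0 and 1 below, between -0.043 for Ift52 and 0.14 for Ift172. The closest to the threshold, Ift172, had an adjusted p of 0.411, and without knockout replicate 2 its difference was 0.071 (adjusted p = 0.674). Its highest value with a replicate left out was 0.18. Of the 3 genes of IFT-A and its adaptor, Tulp3, the adaptor that brings receptors into the cilium, had 0.084 (95% interval -0.0079 to 0.18, adjusted p = 0.415). Ift122, an IFT-A core subunit, had -0.11 (95% interval -0.26 to 0.051). With a replicate left out it ranged from -0.16 to -0.039, the latter without wild-type replicate 3. The value for Kif3b, a subunit of the kinesin motor, was 0.0052 (95% interval -0.12 to 0.13). Rab23, a small GTPase that acts on Hedgehog signalling, had 0.016, and Inpp5e, the phosphatase that sets the lipid content of the ciliary membrane, had -0.0080. The intervals of Kif3b, Rab23 and Inpp5e all stayed within 0.15 log2 units of 0.

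The sums of 7 genes lay higher in all 3 knockouts than in all 3 wild types (21.2%, beside 9.24% of all tested genes): Bbs12, Ift74, Tctn1, Tctn2, Tulp3, Cep83 and Pcm1. Those of Bbs7 and B9d2 lay lower (6.06%, beside 10.4%). The 33 genes did not vary as 1 block. Over the 528 pairs of genes, the correlation of their deviations from the group means in the 12 libraries had a median of -0.0085 and a range of -0.85 to 0.95, and 48.9% of the pairs were above 0. Without knockout replicate 2, left and right, the median summed difference was 0.054, and without knockout replicate 1 it was 0.089.

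In left lungs none of the 33 genes passed the threshold in edgeR, beside 1.18% of all tested genes (112), and 5 had an unadjusted p under 0.05 (15.2%, beside 10.9%). DESeq2 called 1 gene, Bbs7 (adjusted p = 0.0441), beside 2.03% of all tested genes. Bbs12, Tctn1, Tctn2 and Pcm1 were higher with no overlap (12.1%, beside 7.02%), and Bbs7 and Sclt1 lower (6.06%, beside 8.26%). Bbs7 had the lowest difference at -0.44 (SE 0.11, adjusted p = 0.0885 in edgeR). Sclt1 followed at -0.22 (SE 0.090, adjusted p = 0.380), with 47.4, 42.0 and 43.0 CPM in wild type and 34.9, 38.9 and 40.0 CPM in the knockout, which did not overlap. Tctn1 had 0.21 (SE 0.093, adjusted p = 0.424). The median over the 33 genes was 0.036, with 22 above and 11 below 0.

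In right lungs none passed the threshold in edgeR either, beside 1.51% of all tested genes (144). Here 4 had an unadjusted p under 0.05 (12.1%, beside 13.5%), and DESeq2 called none, beside 2.35%. Kif24, Ift172 and Cep290 were higher with no overlap (9.09%, beside 8.47%), and Bbs7 lower (3.03%, beside 9.71%). The difference in Bbs7 was -0.34 (SE 0.11, adjusted p = 0.192). Ift172 had 0.20 (SE 0.076, adjusted p = 0.266), with 88.8, 94.3 and 97.0 CPM in wild type and 97.4, 119.7 and 104.0 CPM in the knockout. The Ift172 libraries did not overlap, but the lowest knockout and the highest wild-type value were 97.4 and 97.0 CPM, and without knockout right 2 the difference was 0.11. Tctn1 had 0.23 (SE 0.093, adjusted p = 0.292). The median over the 33 genes was 0.085, with 26 above and 7 below 0. With a library left out, the number of genes with an unadjusted p under 0.05 moved both ways. It was lowest without knockout right 2, at 1 gene (3.03%, beside 9.60% of all tested genes). It was highest without knockout right 1, at 8 genes (24.2%, beside 14.5%).

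Intu lies on chromosome 3, and 4 of the 33 genes are on that chromosome. Bbs7 (36573142 to 36613477, minus strand) lies 3.92 Mb before Intu and Bbs12 (37312554 to 37321453, plus strand) 3.21 Mb before it. Sclt1 (41626720 to 41742514, minus strand) lies 0.922 Mb after Intu, and Ift80 (68892499 to 69004570, minus strand), an IFT-B subunit, 28.2 Mb after it. Bbs7 had the lowest summed difference of the 33, and Sclt1 had -0.15, which without wild-type replicate 1 was -0.096, above the -0.12 of Ift122. Bbs12 lies between Bbs7 and Intu and had a difference of the opposite sign, and Ift80 had 0.082 (SE 0.060, adjusted p = 0.609). Of the tested genes within 10 Mb of Intu, 3 of 79 were called (3.80%), against 23 of 794 on the rest of chromosome 3 (2.90%) and 113 of 8646 on the other chromosomes (1.31%). Lower in the knockout were 1 of these 3, 19 of the 23 and 85 of the 113. Alleles of the knockout parent's chromosome around Intu cannot be told apart from the loss of Intu in this design. Over the 12 libraries, the deviations of Bbs7 from its group means were most like those of Sclt1 (r = 0.92), Rpgrip1l (r = 0.83) and Mkks, a chaperonin gene (r = 0.66). These points share library, depth and the left and right pairs, so the correlations are given as a description.

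**Figure D3:**
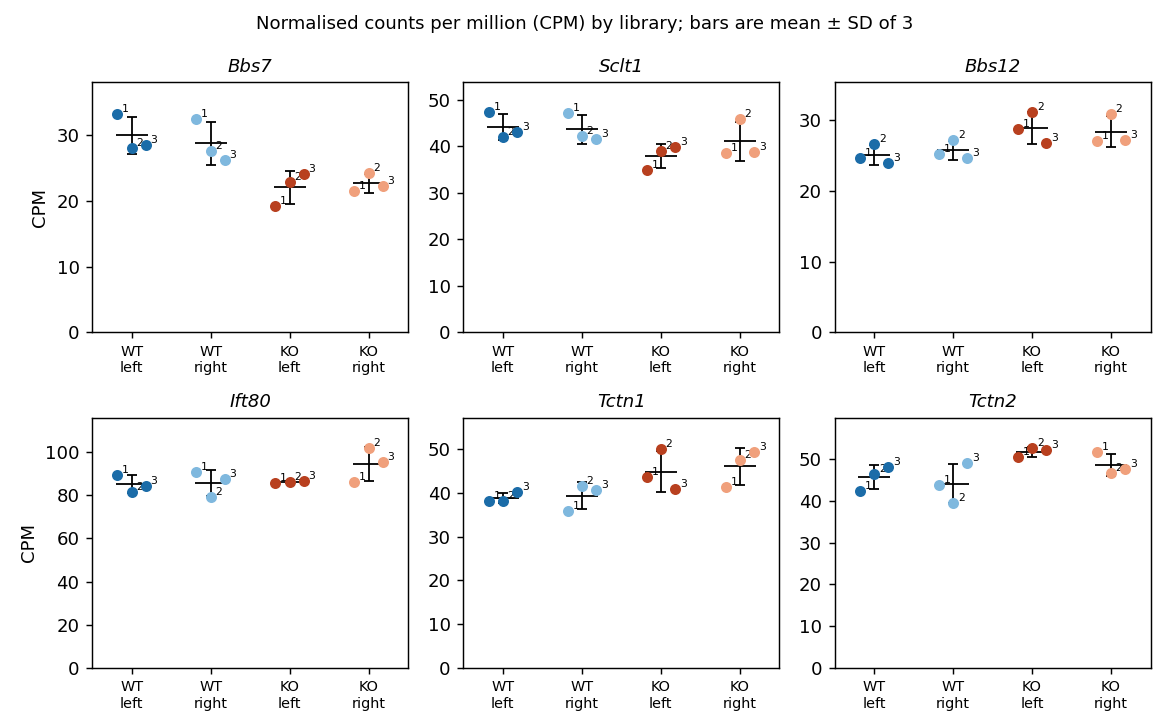
Normalised CPM in every library for the 4 genes of the set on chromosome 3 (Bbs7, Sclt1, Bbs12, Ift80) and for Tctn1 and Tctn2, with mean ± SD of 3 libraries and the library number beside each point; axes start at 0. The 6 knockout values of Bbs7 (19.3 to 24.2 CPM) lie below its 6 wild-type values (26.2 to 33.2 CPM), and in the other 5 genes the genotypes overlap.

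Left and right lungs were compared within each genotype. In wild type none of the 33 genes passed the threshold in edgeR (0.0105% of all tested genes did, 1 gene), none had an unadjusted p under 0.05, and DESeq2 called none, beside 0.116%. The differences, left over right, ran from -0.13 to 0.16 with a median of -0.0055. Inpp5e had the smallest p, with 83.5, 85.7 and 86.8 CPM on the left and 87.6, 92.6 and 96.4 CPM on the right. Its sides did not overlap, as was also so for Ahi1, a transition zone gene (6.06% lower on the left, beside 4.24%, and 0% higher, beside 4.32%). The difference in Inpp5e was -0.11 (95% interval -0.24 to 0.020). Of its exonic bases, 20.3% are shared with Pmpca on the opposite strand, which had a mean of 190 CPM. Nphp4, a transition zone gene, had 26.1, 24.7 and 29.0 CPM on the left and 23.6, 22.8 and 25.3 CPM on the right (difference 0.16, 95% interval -0.068 to 0.38). With left and right pairs as blocks, 0.662% of all tested genes were called and none of the 33, where the smallest adjusted p was 0.815, for Inpp5e. The 6 erythroid markers, globin and other red cell genes, summed to 3010 to 3530 CPM on the left and 2220 to 2470 CPM on the right in wild type, with no overlap. In the knockout they summed to 2970 to 3890 CPM on the left and 2510 to 3290 CPM on the right. Their left over right differences were above 0 for 6 of 6 in both genotypes, with medians of 0.45 in wild type and 0.21 in the knockout, and none was called by edgeR, with 2 at an unadjusted p under 0.05 in wild type and 0 in the knockout. Their part in the side differences of the 33 genes was not tested.

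In the knockout none of the 33 genes and 0% of all tested genes passed between sides in edgeR, and none of the 33 had an unadjusted p under 0.05 or was called by DESeq2, which called 0.0420% of all tested genes. Here 8 differences were above and 25 below 0, with a median of -0.040. Ift22, an IFT-B subunit that binds GTP, had the smallest p, with 46.3, 44.6 and 45.2 CPM on the left and 42.7, 39.5 and 41.5 CPM on the right (difference 0.14, 95% interval -0.0093 to 0.29). Its sides did not overlap (3.03% of the 33, beside 3.97% of all tested genes), and on the lower side the same held for Ttc21b, an IFT-A subunit gene (3.03%, beside 4.21%). Ift22 was higher on the left in all 3 same-numbered pairs in both genotypes, in the knockout alone among the 33 (3.03%, beside 15.4%), and in wild type with Rab23, Bbs7 and Nphp4 (12.1%, beside 14.1%). Ift80 had 85.7, 86.0 and 86.5 CPM on the left and 86.2, 101.8 and 95.7 CPM on the right (difference -0.14, 95% interval -0.29 to 0.016). Ift80 was lower on the left in all 3 pairs, as were 7 of the 33 genes in all (21.2%, beside 14.4%), and 7 of the 33 were in wild type (21.2%, beside 13.4%).

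With left and right pairs as blocks, 4 of the 33 genes had an unadjusted p under 0.05 in the knockout (12.1%, beside 9.61% of all tested genes). They were the IFT-B subunit genes Ift80 (-0.13), Ift172 (-0.13), Ift74 (-0.16) and Ift81 (-0.16), with adjusted p of 0.462, 0.477, 0.489 and 0.495, and none was called, beside 0.452% of all tested genes. Ift74 and Ift81 encode partners that bind tubulin as cargo of the train. Ift81 had 56.3, 58.2 and 56.0 CPM on the left and 55.6, 78.5 and 57.8 CPM on the right, so that 1 library, knockout right 2, lay apart from the other 5. Ift74 had 70.5, 64.2 and 71.4 CPM on the left and 78.5, 80.2 and 70.9 CPM on the right, where 1 right library lay within the left range. Without knockout right 2, in the fit with no pairs, the difference was 0.0048 for Ift81, -0.12 for Ift74, -0.080 for Ift80 and -0.044 for Ift172.

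The test of whether the knockout difference itself differed between sides called none of the 33 genes and 0% of all tested genes in edgeR, and none of the 33 had an unadjusted p under 0.05. DESeq2 called none and 0% of all tested genes, and with left and right pairs as blocks edgeR called none of the 33, beside 0.0210%. The smallest p were those of Ift74 (-0.19, 95% interval -0.44 to 0.071) and Ift81 (-0.19, 95% interval -0.51 to 0.13), where a value below 0 means a lower knockout difference on the left. Without knockout right 2 the value of Ift81 was -0.020 and that of Ift74 -0.15. For 31 of the 33 genes the interval lay within 0.5 log2 units of 0, so differences between sides larger than that were not within the intervals of these genes.

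**Figure D4:**
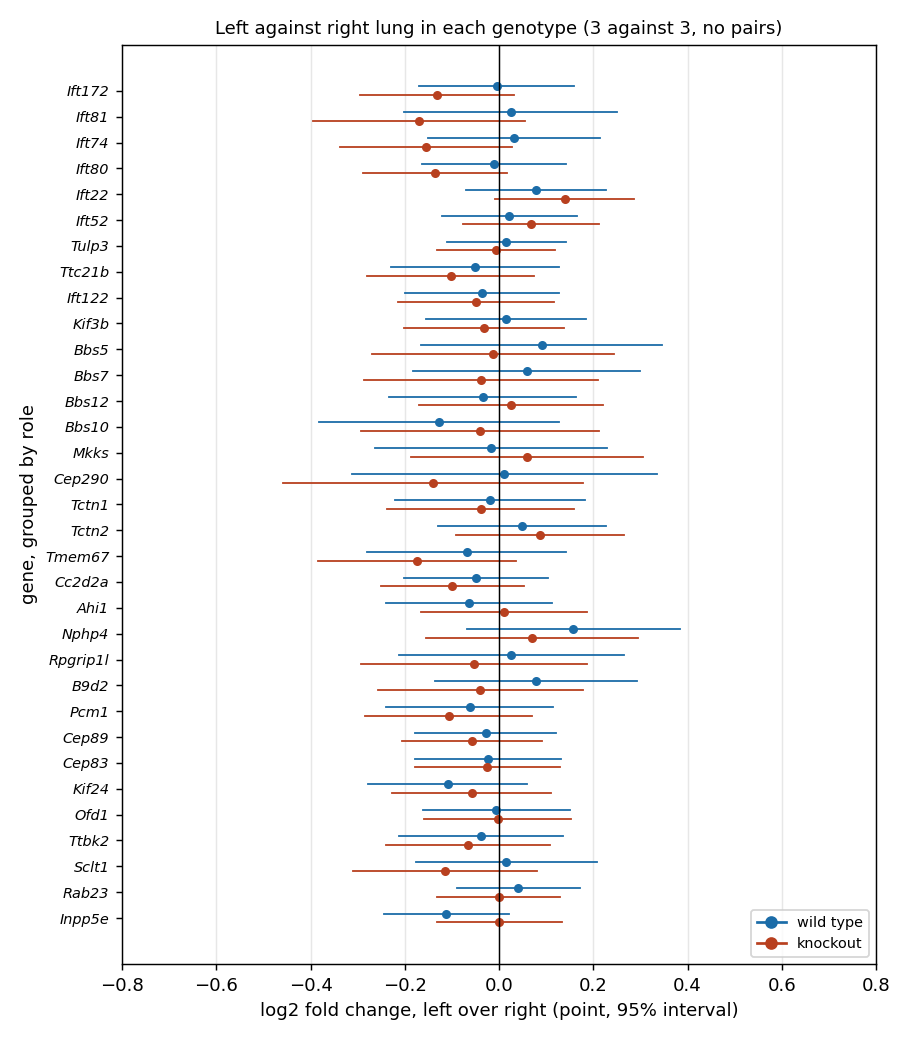
Log2 fold change of left over right lung for each gene in wild type (blue) and in the Intu knockout (red), edgeR estimates with 95% intervals from 3 against 3 libraries without pairs. Every interval includes 0, and in the knockout 25 of the 33 points lie below 0, among them Ift80, Ift172, Ift74 and Ift81, while Ift22 lies above 0 in both genotypes.

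Other genes of the same machinery were counted from the same fits. Of 114 further cilium genes listed, 45 were in the table and 44 were tested, Intu among them. Rfx4, an RFX factor gene, lay between 0 and 0.287 CPM and was not tested. None of the 44 was called by edgeR in any of the 6 comparisons, where between 0% and 1.51% of all tested genes were called. In the summed comparison 1 had an unadjusted p under 0.05 (2.27%, beside 13.6% of all tested genes). It was Ccp110, which caps the centriole before a cilium forms (0.11, SE 0.043, adjusted p = 0.313). DESeq2 called none in that comparison, beside 3.19% of all tested genes. There, 29 differences were above 0 (65.9%, beside 51.8%) and 15 below, with a median of 0.032.

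Markers of other cell types were measured in the same libraries. All 8 lung epithelium and all 6 lung mesenchyme markers in the table had a mean above 1 CPM. Markers of motile ciliated cells, whose cilia share most of these genes, were low. Of 6 such markers in the table, 4 had a mean under 1 CPM, and the sum of the 6 was 13.3 to 15.9 CPM in wild type and 9.87 to 14.4 CPM in the knockout. Smooth muscle markers summed to 641 to 778 CPM in wild type and 284 to 336 CPM in the knockout (4 of 5 called lower). Neuron and neural crest markers summed to 41.4 to 68.2 and 33.9 to 42.5 CPM (4 of 7), and 1 of these 7 had a difference above 0 (0.23). Macrophage markers summed to 201 to 231 and 141 to 177 CPM (2 of 7). These calls are from edgeR with left and right summed, where 1.46% of all tested genes were called. Lung mesenchyme markers summed to 6340 to 6880 CPM and 6960 to 7890 CPM, with none of 6 called and 1 below 0. Most of that sum came from the collagen genes Col3a1 (2750 to 3670 CPM over all libraries) and Col1a2 (2390 to 3440 CPM). Each of the others had at most 490 CPM, so the sum says little about them. The sums of lung epithelium markers overlapped at 563 to 645 and 530 to 646 CPM, as did those of proliferation markers at 5380 to 5620 and 5340 to 6010 CPM, and of endothelium markers at 638 to 699 and 597 to 769 CPM. Mesothelium markers summed to 262 to 339 and 234 to 314 CPM. Of these 3 markers, 1 was called lower in right knockout lungs (adjusted p = 0.0448 by edgeR), beside 1.51% of all tested genes. The part of these shifts in the values of the 33 cilium genes was not tested.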

How the data were processed

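RNA was prepared with a NucleoSpin kit and BGI built the libraries, per the labels' protocols. The authors deposited raw read counts for each gene, with exon positions and length. Reads went through FastQC, HISAT2 (GRCm38) and featureCounts, per the submitters' processing notes; their versions and the strand setting are not given in the sources used. The table ends within a row on chromosome 8, and 1 incomplete row was left out; the rest of the genome was not analysed here. Symbols matched 30915 of 31078 genes (99.5%).

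The cilium genes and all lists were chosen with earlier results of these data known. Genes were filtered with filterByExpr (minimum count 10, minimum total 15) and scaled with TMM factors (0.992 to 1.01). Deviations of left and right libraries with one number correlated at 0.253 to 0.486 within a genotype, and at -0.121 to -0.0416 across genotypes, so the numbers were taken to pair left and right only, a hint from the data. Knockout and wild type were therefore compared on left and right counts summed; sides, and genotypes within a side, in 1 fit of 12 libraries with 4 groups. All tests were edgeR 4.0.16 (glmQLFit and glmQLFTest, R 4.3.3) with Benjamini-Hochberg adjustment over 9519 genes and a threshold of 0.05; SE and intervals come from the same fits. RPKM values were computed from the counts and the deposited exon length. No 2 replicates of a group agreed within sampling noise (chi-square over its degrees of freedom 4.57 to 13.6). Alternatives were RLE factors, no filter, DESeq2 1.42.0, limma-voom 3.58.1 with pairs, replicate blocks and leaving out each replicate. In comparisons of genotypes the replicate block joined wild type and knockout of the same number, a pairing that the correlations above did not show. Between sides and in the interaction it joined left and right of the same genotype and number. The procedure was also run on simulated counts, with changes larger than the differences estimated for the cilium genes. The outcome is not given here. Genes were named by rule: Intu and Gli1, the smallest p in each comparison and role, the highest and lowest levels, chromosome 3, and the genes most like Bbs7; other genes named were chosen after their values were seen.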

Additional observations from a re-analysis of the deposited data

How the results depend on the processing

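No gene of the 33 was called in any of the 6 comparisons under any alternative except Bbs7, and the median difference between knockout and wild type kept its sign throughout. With left and right summed, 1 gene was called with 12 libraries without pairs, DESeq2 or limma-voom, and 0 with RLE factors, no filter, a replicate block or any replicate left out. Bbs7 ranged from -0.44 to -0.30 when each replicate was left out, with adjusted p of 0.112 to 0.273 by edgeR. With the replicate block its adjusted p was 0.285 by edgeR. That block joined wild type and knockout of the same number, a pairing that the correlations across genotypes did not show. In left lungs 1 gene, Bbs7, was called with no filter (adjusted p = 0.0145) and with DESeq2. Differences of uncalled genes changed sign in some alternative for 12 of the 33 genes in the summed comparison, all of at most 0.063 in size. The same held for 13 genes in left lungs (up to 0.15 in size) and 10 in right lungs (up to 0.080). Between sides it held for 23 in wild type (up to 0.0685) and 19 in the knockout (up to 0.17). In the interaction it held for 19 (up to 0.15).

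Counts over all tested genes moved more. The 139 of the summed comparison became 543 with 12 libraries without pairs, 304 with DESeq2, 344 with limma-voom and 40 with the replicate block, and 27 to 166 with a replicate left out (58 without wild-type 1, 29 without wild-type 2, 27 without knockout 3). The 112 in left lungs became 510 with no filter, 193 with DESeq2, 48 with only the groups compared, 24 with those and the replicate block, and 48 to 87 with a library left out. The 144 in right lungs became 595 with no filter, 224 with DESeq2 and 109 with only the groups compared. It became 61 with only those groups and the replicate block, and 66 to 126 with a library left out. Between wild-type sides, no filter, DESeq2 and blocks of left and right pairs gave 46, 11 and 63, and a library left out 1 to 2. Between knockout sides the same settings gave 31, 4 and 43, and 0 to 1. The interaction gave 6 with no filter and 2 with left and right pairs as blocks. The median over the 33 genes ranged from -0.012 to 0.020 between wild-type sides, from -0.068 to -0.016 between sides in the knockout and from -0.073 to -0.0051 in the interaction with a library left out. The cause of these shifts was not tested. The lowest count of any of the 33 genes in a library was 109, and precision rests on 3 samples a group.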
